A study of Mus musculus with 10 samples.

Results

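The homeostatic and mucosal chemokines examined here are the ligands Cxcl12, Cxcl13, Cxcl14, Cxcl16, Cx3cl1, Ccl20, Ccl25 and Ccl28, with Ccr6, the receptor of CCL20, and Ccr9, the receptor of CCL25. Their probe sets were taken wherever the array annotation pairs a probe set with 1 of these genes alone, which gave 25 probe sets for the 10 genes, of 34945 probe sets and 18193 genes in all. RNA of the distal colon, from the rectum up to where the proximal colon begins, of single mice was hybridised to 3′ expression arrays from Affymetrix that cover the mouse genome. Every mouse was a C57BL/6 Rag1-/- animal, which lacks T and B lymphocytes of host origin, aged 4 to 5 months. Each had been given T cells when 10 weeks old and was killed 2 to 3 months afterwards. The inflamed mice received naïve T cells, which bring on colitis, and their colons were labelled severely (n = 3) or moderately (n = 3) inflamed. The control mice received regulatory T cells (Tregs; n = 4) and were labelled non-inflamed. Donor T cells were therefore given to both groups, although by the methods of the study more naïve T cells than Tregs were injected per mouse. Neither uninjected mice nor mice with their own lymphocytes were among the arrays.

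Chemokines are small secreted proteins that direct the migration of cells bearing the matching receptors, and the homeostatic ones are made in healthy tissue without an inflammatory stimulus. CXCL12 retains leukocytes and progenitors around stromal cells, CXCL13 builds B cell follicles, and CCL20, CCL25 and CCL28 are epithelial products that bring lymphocytes and dendritic cells to mucosal surfaces. CXCL16 and CX3CL1 are made as membrane proteins that can be cut free, so that each can act as an adhesion molecule or as a soluble attractant. In the intestine, CCL25 with CCR9 is best known for homing to the small bowel, and CCL28 with CCR10 for homing to the colon.

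Promoter windows of RefSeq (GRCm38.p6; 250 bases before to 50 after each transcription start) were matched to 9 of the 10 genes, as 11 windows, and there was no entry for Cxcl16. The windows were searched on both strands for the letters GGGA, any 4 bases and CC, a form of the NF-kB element, which occur in 20.7% of all 32851 promoter windows of this length. A match was present in 4 of the 11 windows, from 4 of the 9 genes. The letters were chosen with earlier results known, so that a match lends no support to the test results. The 4 windows are shown because 3 of the 4 genes (Cxcl13, Ccr6 and Ccr9) passed the test in inflamed colons and the other, Ccl20, in severely inflamed colons. Each is printed 5′ to 3′ on the strand of its gene, with the matching letters in capitals, and a match is a description of these letters and not of a site in use.
Cxcl13, chr5:95956689-95956988, plus strand, match at -63 from the start: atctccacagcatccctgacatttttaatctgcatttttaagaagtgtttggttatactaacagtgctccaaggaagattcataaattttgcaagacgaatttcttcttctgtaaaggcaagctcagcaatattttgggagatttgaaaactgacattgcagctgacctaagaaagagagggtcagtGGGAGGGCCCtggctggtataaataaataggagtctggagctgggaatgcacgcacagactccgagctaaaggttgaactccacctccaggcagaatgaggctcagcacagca
Ccl20, chr1:83116516-83116815, plus strand, match at -81 from the start: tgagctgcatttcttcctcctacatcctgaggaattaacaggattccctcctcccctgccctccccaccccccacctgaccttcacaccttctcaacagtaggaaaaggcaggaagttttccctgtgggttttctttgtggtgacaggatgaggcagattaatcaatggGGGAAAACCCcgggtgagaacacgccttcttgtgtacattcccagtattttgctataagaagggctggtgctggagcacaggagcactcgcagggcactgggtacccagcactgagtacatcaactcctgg
Ccr6, second start, chr17:8242276-8242575, plus strand, match at -80 from the start: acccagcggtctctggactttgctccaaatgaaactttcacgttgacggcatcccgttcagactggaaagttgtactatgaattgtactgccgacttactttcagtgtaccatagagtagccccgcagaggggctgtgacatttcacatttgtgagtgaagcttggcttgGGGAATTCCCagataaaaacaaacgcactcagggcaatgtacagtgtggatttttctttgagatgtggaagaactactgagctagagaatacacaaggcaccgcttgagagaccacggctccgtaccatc
Ccr9, chr9:123766961-123767260, plus strand, match on the opposite strand at -83 from the start: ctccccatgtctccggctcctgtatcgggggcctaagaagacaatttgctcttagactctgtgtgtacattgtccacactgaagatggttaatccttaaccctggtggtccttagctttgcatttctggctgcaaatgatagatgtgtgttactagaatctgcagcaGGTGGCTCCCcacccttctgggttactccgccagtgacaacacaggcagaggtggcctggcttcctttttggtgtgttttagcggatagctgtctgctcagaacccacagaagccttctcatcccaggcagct
The windows of Cxcl12, Cxcl14, Cx3cl1, Ccl25 and Ccl28 held no such letters. The STAT letters TTCNNNGAA, present in 8.3% of all windows, were found in Cxcl14 and at the first start of Ccr6, and TATAAA, present in 13.6%, in Cxcl13, Cx3cl1 and at the second start of Ccl25.

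All values are log2 expression values, and each gene is represented by its probe set of highest mean over the 10 arrays unless another is named. Of the 10 genes, 5 were higher in inflamed than in control colons (limma, adjusted p under 0.05 over all genes), where 18.5% of all genes were called higher. They were the ligands Cxcl13, Cxcl16 and Cxcl14 and both receptors, Ccr9 and Ccr6. None was called lower, where 21.2% of all genes were, and 5 did not pass the test: Cxcl12, Cx3cl1, Ccl20, Ccl25 and Ccl28. The median difference over the 10 genes was 0.46, against 0.03 over all genes. In 4 of the 10, all 6 inflamed colons lay above all 4 controls, as did 14.6% of all genes, and in none did they lie below, as did 17.1%. RNA of whole tissue was measured, so that a change in the number of cells of a type and a change in RNA per cell cannot be told apart.

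**Figure D1:**
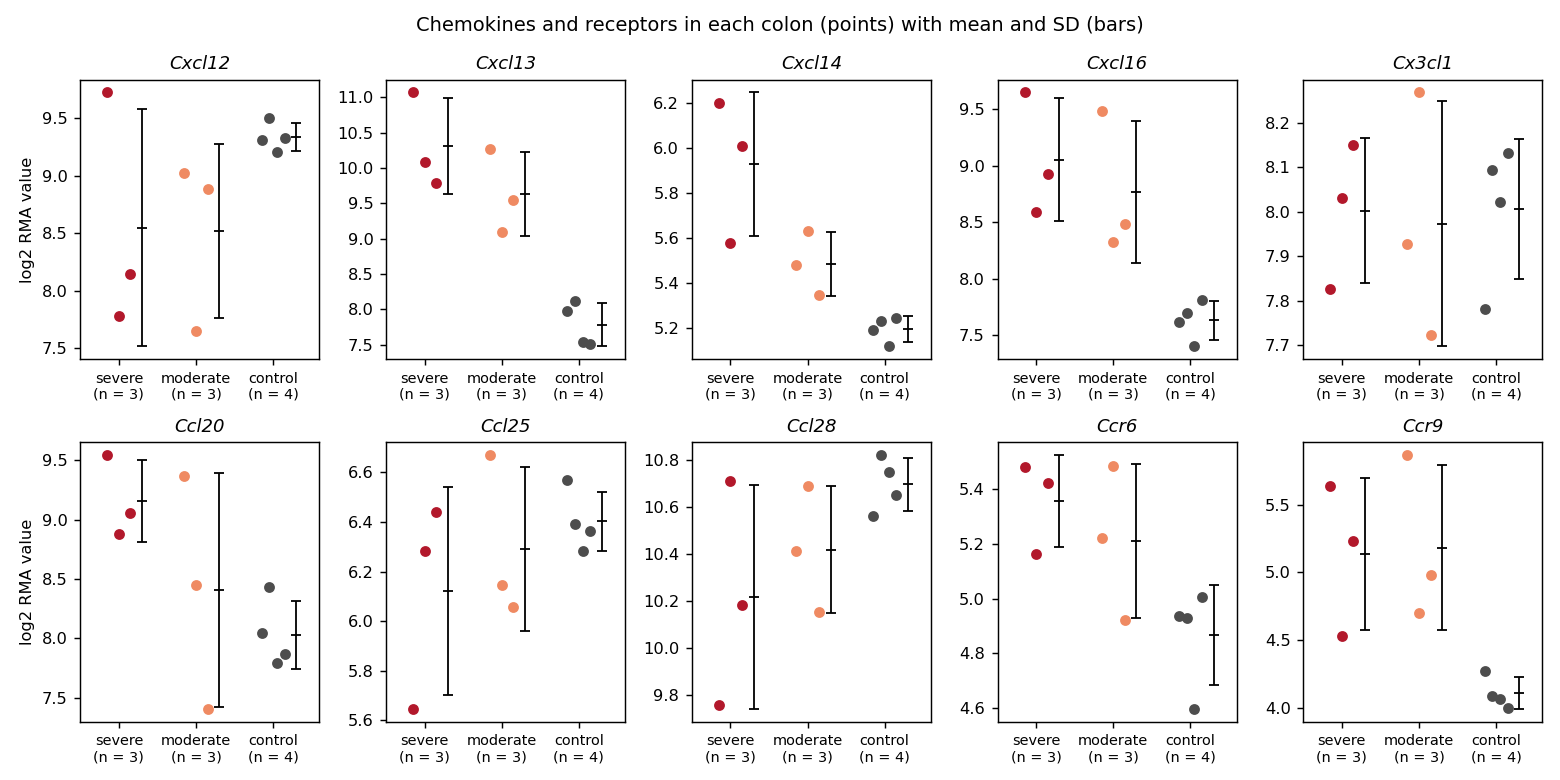
Log2 expression value (vertical axis) of each of the 10 genes in every colon, with severely inflamed, moderately inflamed and control colons from left to right; points are mice, and bars are the mean and SD of each group (n = 3, 3 and 4). For Cxcl13, Cxcl14, Cxcl16 and Ccr9 every inflamed colon lies above every control colon, while the controls of Cxcl12 lie close together between 9.21 and 9.51 and the inflamed colons range between 7.65 and 9.73.

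The largest difference of the 10 was that of Cxcl13, the ligand of CXCR5 made by follicular dendritic cells and lymphoid stroma. Its value was 11.07, 10.08 and 9.78 in severely inflamed colons, 10.27, 9.09 and 9.55 in moderately inflamed colons and 7.97, 8.11, 7.53 and 7.51 in control colons. All inflamed colons were above all controls, and the severe and moderate colons overlapped. The inflamed mean of 9.97 ± 0.68 (SD, n = 6) stood above the control mean of 7.78 ± 0.31 (SD, n = 4) by 2.19 (SE 0.31, 95% interval 1.51 to 2.87, adjusted p = 0.000179), a 4.565-fold difference. The second probe set of the gene differed by 1.98 (adjusted p = 0.000685 over all probe sets). Against control, the difference was 2.53 in severe colons (adjusted p = 0.000189) and 1.85 in moderate colons (adjusted p = 0.0018).

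Markers of the cells that make or follow CXCL13 moved unevenly beside it. Of 6 measured markers of follicular and lymphoid stroma, 2 were higher in inflamed colons, Vcam1 (by 2.22) and Clu (by 1.20). None was lower and 4 did not pass. In severe against control colons 2 of the 6 were higher and 1 was lower, where 16.1% and 18.9% of all genes were. The summed level of that list, as the sum of antilog values, was 1035 to 2721 in inflamed colons and 674 to 855 in control colons. Such a sum gives bright genes such as Clu the most weight, and the 4 markers that did not pass differed by -0.23 to 0.35. Cr2, a marker of this list, lay below the lower quartile of the array on 9 of 10 arrays. The hosts lack B cells of their own and were given T cells. Of 7 B cell markers, 2 were higher, Ms4a1 (by 0.29) and Cd22 (by 0.58), none was lower and 5 did not pass. Their summed level was 183 to 249 in inflamed and 158 to 166 in control colons. Cxcr5, which codes for the receptor, was likewise below the lower quartile on 9 of 10 arrays and did not pass the test (difference 0.21, adjusted p = 0.18). The part of these cells in the Cxcl13 difference was not tested.

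Cxcl16, a transmembrane chemokine and scavenger receptor of macrophages and dendritic cells, followed the same separation with a smaller difference. It read 9.65, 8.59 and 8.93 in severely inflamed colons, 9.48, 8.33 and 8.49 in moderately inflamed colons and 7.62, 7.70, 7.40 and 7.82 in control colons. No inflamed colon overlapped the controls, and 1 severe and 1 moderate colon stood highest. The difference was 1.28 (SE 0.25, 95% interval 0.74 to 1.81, adjusted p = 0.00143), a 2.42-fold change, and 1.93 with the second probe set (adjusted p = 0.000217). It was 1.42 in severe (adjusted p = 0.00309) and 1.13 in moderate colons (adjusted p = 0.0134), each against control.

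The same 2 inflamed colons were the highest for macrophage and monocyte markers. Of 11 measured markers 10 were higher and 1 lower in inflamed colons, and the summed level was 9349 to 23919 in inflamed and 3438 to 3923 in control colons. The part of these cells in the Cxcl16 difference was not tested.

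Cxcl14, an epithelial and stromal chemokine with antimicrobial activity, was 6.20, 5.58 and 6.01 in severely inflamed colons, 5.48, 5.63 and 5.35 in moderately inflamed colons and 5.19, 5.23, 5.12 and 5.25 in control colons. The controls lay close together, and every inflamed colon lay above them. The difference was 0.51 (SE 0.15, 95% interval 0.18 to 0.84, adjusted p = 0.0173) and 1.01 with the second probe set (adjusted p = 0.00674). The call was lost without control 3 (0.48, adjusted p = 0.0502). In severe colons the difference from control was 0.73 (adjusted p = 0.00163), whereas the 0.29 of moderate colons did not pass (adjusted p = 0.134), although it did without severe 2 in the shared estimate of the spread (adjusted p = 0.0405). The difference between severe and moderate colons themselves was 0.44 (95% interval 0.12 to 0.76) and did not pass (limma, adjusted p = 0.864 over all genes).

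The membrane-bound Cx3cl1, which attracts CX3CR1-bearing monocytes and macrophages, gave no detectable difference. It measured 7.83, 8.03 and 8.15 in severely inflamed colons, 7.93, 8.27 and 7.72 in moderately inflamed colons and 7.78, 8.10, 8.02 and 8.13 in control colons. The groups overlapped fully. The 95% interval of the difference, from -0.27 to 0.23 around -0.02, bounds how far the inflamed and control means could lie apart (adjusted p = 0.91). All 4 probe sets of the gene differed by -0.11 to 0.00, but the dimmest (0.00) lay below the lower quartile on all 10 arrays.

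Cxcl12, the stromal ligand of CXCR4 and ACKR3, did not pass the test, and 1 inflamed colon lay on the other side of the controls from the rest. The values were 9.73, 7.78 and 8.15 in severely inflamed colons, 9.03, 7.65 and 8.89 in moderately inflamed colons and 9.32, 9.51, 9.21 and 9.33 in control colons. Severe 1 stood above all controls and the other 5 inflamed colons below all of them. The difference was -0.80 (SE 0.35, 95% interval -1.57 to -0.03, adjusted p = 0.0917). Without severe 1 it was -1.04 and passed the test (adjusted p = 0.00972), as did severe against control (-1.38, adjusted p = 0.0087). With all arrays, severe colons differed from control by -0.79 (adjusted p = 0.19) and moderate colons by -0.82 (adjusted p = 0.187). The dimmer probe sets differed in the same direction, by -0.40 (adjusted p = 0.0549) and -0.19 (adjusted p = 0.127). The probe set of -0.19 lay below the lower quartile on 9 of 10 arrays, so that its direction says little.

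Severe 1 also had the highest mean over the fibroblast markers of all arrays, although its Lum (9.17) and Dcn (11.49) lay below every control. Of 8 fibroblast markers, 3 were lower and 1 higher in inflamed colons, and the summed level ran from 5483 to 14959 in inflamed and from 11794 to 14775 in control colons. Among them Lum differed by -1.77 (adjusted p = 0.000312) and Dcn by -1.12 (adjusted p = 0.00323). Of 8 endothelial markers, another source of CXCL12, 5 were lower and none higher, with summed levels of 342 to 485 in inflamed and 469 to 577 in control colons. The part of these cells in the Cxcl12 values was not tested.

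**Figure D2:**
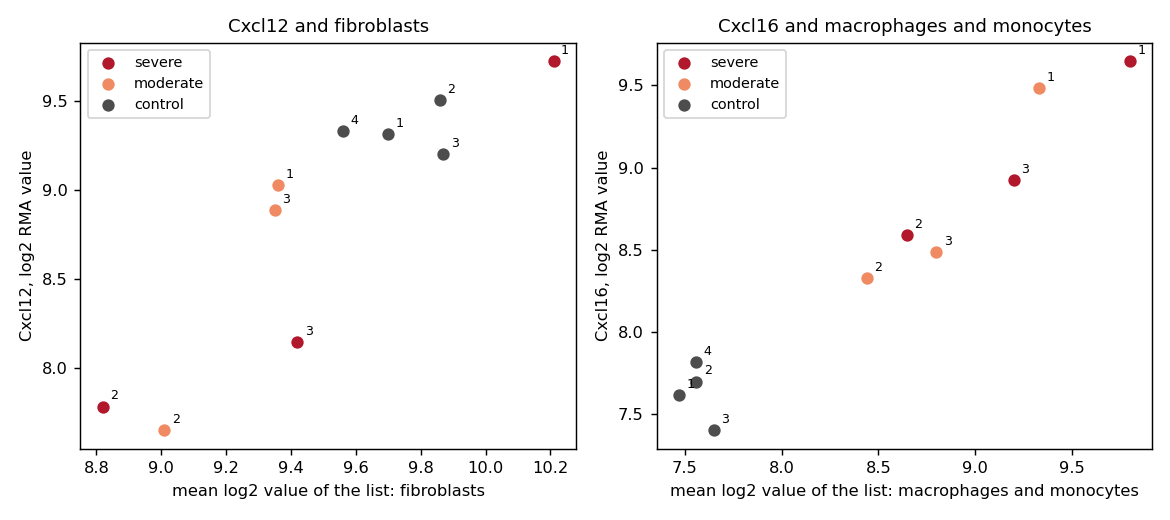
Left, log2 value of Cxcl12 (vertical axis) against the mean log2 value of the 8 fibroblast markers (horizontal axis); right, Cxcl16 against the mean of the 11 macrophage and monocyte markers; each point is 1 colon, numbered by replicate and coloured by group. Severe 1 has the highest fibroblast mean (10.21) and the highest Cxcl12 (9.73), and severe 1 and moderate 1 are highest on both axes for Cxcl16.

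Among the epithelial ligands, Ccl20 draws CCR6-bearing lymphocytes and dendritic cells and is known as an inducible product of the epithelium over lymphoid follicles. It was 9.54, 8.88 and 9.05 in severely inflamed colons, 9.37, 8.45 and 7.40 in moderately inflamed colons and 8.04, 8.43, 7.79 and 7.87 in control colons. Moderate 3 was the lowest of all arrays, and the other 5 inflamed colons lay above every control. Over all inflamed colons the difference of 0.75 did not pass (SE 0.35, 95% interval -0.01 to 1.51, adjusted p = 0.108), but without moderate 3 it was 1.03 (adjusted p = 0.0029). Severe colons were higher than control by 1.13 (95% interval 0.31 to 1.95, adjusted p = 0.035). This call was lost when any of 5 arrays was left out: control 1 (adjusted p = 0.0679), control 3 (0.0849), control 4 (0.0759), severe 1 (0.117) or severe 3 (0.074). Moderate colons differed from control by 0.38 (adjusted p = 0.485), by -0.10 without moderate 1 and by 0.88 without moderate 3 (adjusted p = 0.042). The gene has 1 probe set.

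Ccl28, a ligand of CCR3 and CCR10 made by colonic epithelium, was 9.76, 10.71 and 10.18 in severely inflamed colons, 10.41, 10.69 and 10.15 in moderately inflamed colons and 10.56, 10.82, 10.75 and 10.65 in control colons. Only 4 of the 6 inflamed colons lay below all controls. The difference of -0.38 did not pass the test (SE 0.17, 95% interval -0.75 to -0.02, adjusted p = 0.0926). It passed at -0.46 when severe 2 (adjusted p = 0.0423) or moderate 2 (adjusted p = 0.0432) was left out, and the -0.48 of severe colons (adjusted p = 0.0835) became -0.73 without severe 2 (adjusted p = 0.00712). The other probe sets of the gene differed by 0.07 and 0.00. Beside it, 6 of 10 measured colonocyte markers were lower and 1 higher in inflamed colons, with summed levels of 29966 to 62327 in inflamed and 70830 to 82350 in control colons, and their part was not tested.

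Ccl25, the thymic and small-bowel ligand of CCR9, was measured at 5.65, 6.28 and 6.44 in severely inflamed colons, 6.67, 6.15 and 6.06 in moderately inflamed colons and 6.57, 6.39, 6.28 and 6.37 in control colons. The groups overlapped, and the difference of -0.20 did not pass (95% interval -0.55 to 0.16, adjusted p = 0.372), nor did the -0.22 of the second probe set (adjusted p = 0.0936).

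**Figure D3:**
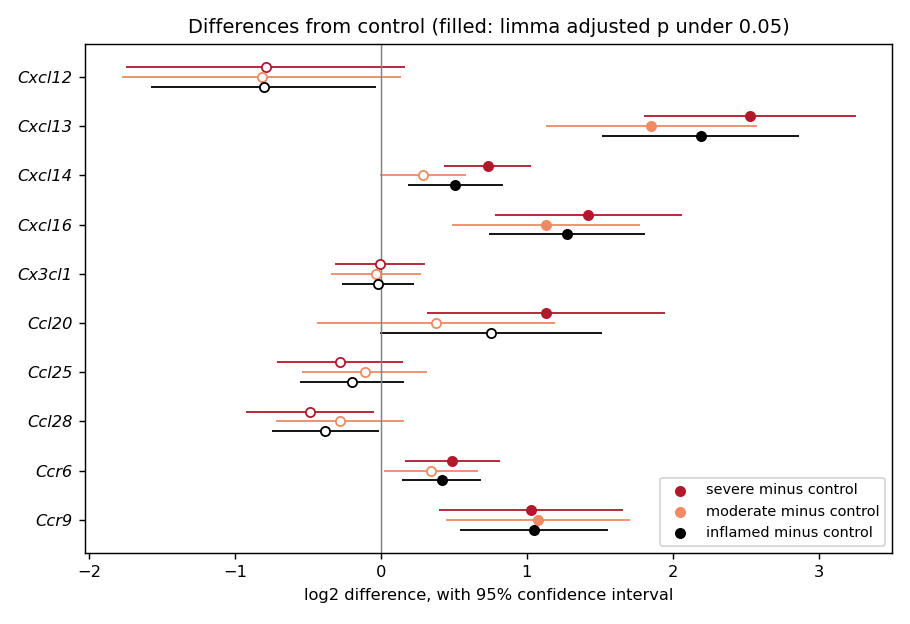
Differences from control on the log2 scale (horizontal axis) for each gene, with 95% confidence intervals, for severe, moderate and all inflamed colons; filled points passed an adjusted p of 0.05 in limma and open points did not. Cxcl13 differs most, by 2.53 in severe and 1.85 in moderate colons, and Cxcl12 has wide intervals that cross 0 in severe and in moderate colons.

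Of the receptors, Ccr9 marks gut-homing T cells and plasmacytoid dendritic cells. Its brightest probe set gave 5.64, 4.53 and 5.23 in severely inflamed colons, 5.87, 4.70 and 4.98 in moderately inflamed colons and 4.28, 4.09, 4.07 and 4.00 in control colons. All inflamed colons were above all controls, and the difference was 1.05 (SE 0.23, 95% interval 0.54 to 1.56, adjusted p = 0.00346), a 2.07-fold change. This probe set is of the class that may match other transcripts too, and the other 4 probe sets of the gene lay below the lower quartile on 9 or 10 arrays, with differences of 0.38 (adjusted p = 0.00369), 0.27 (0.0469), 0.21 (0.0923) and 0.07 (0.633). With such probe sets left out, the gene differed by 0.21 and did not pass (adjusted p = 0.089).

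Severe and moderate colons were above control in Ccr9 by 1.03 (adjusted p = 0.0165) and 1.07 (adjusted p = 0.0158). The severe call was lost without severe 1 (0.77, adjusted p = 0.0679) or severe 3 (0.98, adjusted p = 0.0578), and the moderate call without moderate 1 (0.73, adjusted p = 0.056). Of 11 T cell markers 9 were higher in inflamed colons and none lower, with summed levels of 1020 to 1734 in inflamed and 610 to 702 in control colons. Of 7 markers of plasmacytoid dendritic cells Ly6d was higher (by 4.24) and Pacsin1 lower (difference -0.31), with summed levels of 1590 to 2241 in inflamed and 1249 to 1594 in control colons. Without Ly6d, left out after its values were seen, the sums were 1202 to 1690 in inflamed and 1221 to 1558 in control colons. The part of either cell type in the Ccr9 difference was not tested.

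Ccr6, carried by Th17 cells, B cells and some dendritic cells, was 5.48, 5.16 and 5.42 in severely inflamed colons, 5.22, 5.49 and 4.92 in moderately inflamed colons and 4.94, 4.93, 4.60 and 5.01 in control colons. Moderate 3 fell among the controls and the other inflamed colons lay above them. The difference was 0.42 (SE 0.12, 95% interval 0.15 to 0.69, adjusted p = 0.0178), and 0.33 without control 3, which did not pass (adjusted p = 0.0651). Severe colons were higher than control by 0.49 (adjusted p = 0.0234), a call lost without control 3 (adjusted p = 0.0614), severe 1 (0.0798) or severe 3 (0.0796). The 0.34 of moderate colons did not pass (adjusted p = 0.103) unless moderate 3 was left out (0.49, adjusted p = 0.0314).

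**Figure D4:**
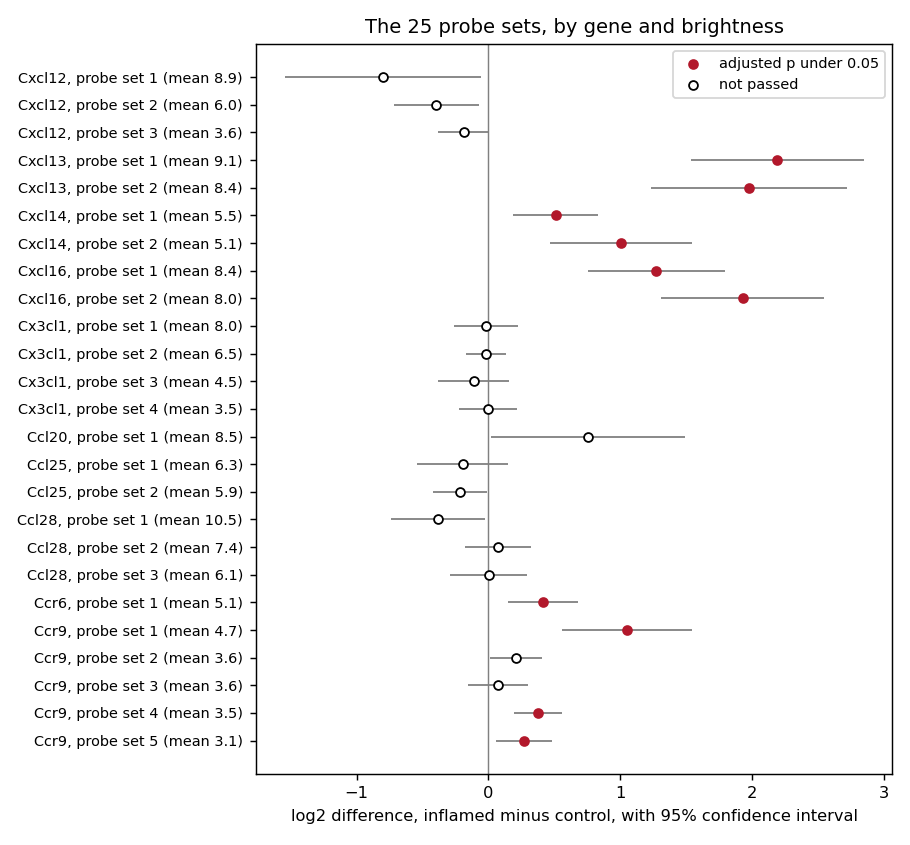
Difference between inflamed and control colons on the log2 scale (horizontal axis) for each of the 25 probe sets, with its 95% confidence interval, ordered by gene and by mean value (in brackets); filled points passed an adjusted p of 0.05 over all probe sets. Both probe sets of Cxcl13, Cxcl14 and Cxcl16 passed, all 4 of Cx3cl1 lie near 0, and 3 of 5 passed for Ccr9. All but the brightest probe set of Ccr9 lay below the lower quartile on 9 or 10 arrays.

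By probe set, 10 of the 25 were higher in inflamed colons and none was lower, where 16.5% and 19.4% of all probe sets were called higher and lower. Among the 10 are the Ccr9 probe sets with differences of 0.38 and 0.27, which lay below the lower quartile on all 10 arrays. The median difference over the 25 was 0.07, against 0.03 over all probe sets. By severity, 6 of the 10 genes were higher in severe than in control colons, with 16.1% of all genes called higher, and none was lower, with 18.9%. In moderate colons 3 were higher and none lower, where 13.2% and 16.7% of all genes were. Without overlap, 6 genes lay above and none below control in severe colons (21.6% and 22.0% of all genes). In moderate colons 4 lay above and 1, Cxcl12, below (18.4% and 19.9%). Cxcl13, Cxcl16 and Ccr9 passed in both, and Cxcl14, Ccl20 and Ccr6 in severe colons, but no difference between severe and moderate colons passed for any of the 10 genes or of all 18193 genes. At an unadjusted p under 0.05, limma gave 922 genes between the severities, of the 10 only Cxcl14, and the methods' t-test gave 643 genes, none of them after adjustment. Severe and moderate colons share the control arrays, so that the calls of both comparisons are not independent.

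Of 7 measured receptors of the ligands, 2 were higher, 1 was lower and 4 did not pass, with a median difference of 0.21. Over all genes, 18.5% were higher and 21.2% lower, with a median difference of 0.03. The same shares apply to every other list counted between inflamed and control colons. Cxcr6, the receptor of CXCL16 on T cells and innate lymphocytes, read 7.77, 6.36 and 7.15 in severely inflamed colons, 7.74, 6.28 and 6.81 in moderately inflamed colons and 4.07, 4.24, 3.82 and 3.81 in control colons. No group overlapped with control, and the difference was 3.03 (SE 0.29, adjusted p = 1.5e-05).

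The receptors of CXCL12 moved in opposite directions. Cxcr4, the signalling receptor, was 6.37, 4.69 and 5.57 in severely inflamed colons, 6.12, 5.04 and 4.63 in moderately inflamed colons and 3.51, 3.50, 3.59 and 3.46 in control colons, a difference of 1.89 (adjusted p = 0.000587). Ackr3, the scavenging receptor, was 7.74, 6.30 and 6.37 in severely inflamed colons, 6.74, 6.27 and 7.23 in moderately inflamed colons and 8.19, 8.56, 8.28 and 8.04 in control colons, a difference of -1.49 (adjusted p = 0.000923). For both genes the inflamed and control colons did not overlap. In control colons, Cxcr4 lay below the lower quartile of the arrays (3.82 to 3.92 across arrays) and Cxcr6 close to it.

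Cxcr5, described above, and the receptors of CX3CL1 and CCL28 did not pass the test. Cx3cr1 differed by 0.18 (adjusted p = 0.0939), and Ccr10, the mucosal receptor of CCL28, by 0.25 (adjusted p = 0.112). Ccr3, its other receptor, was below the lower quartile on 10 of 10 arrays (difference 0.09, adjusted p = 0.509).

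All 4 genes of release and clearance passed. Adam10, the protease that sheds CXCL16 and CX3CL1 constitutively, was higher by 0.68 (SE 0.07, adjusted p = 2.6e-05), and Adam17, which sheds CX3CL1 on stimulation, by 0.65 (SE 0.09, adjusted p = 0.000132). Dpp4, which trims and inactivates CXCL12, was 7.10, 7.83 and 7.10 in severely inflamed colons, 7.71, 7.31 and 8.06 in moderately inflamed colons and 8.66, 8.52, 8.74 and 8.54 in control colons. Every inflamed colon lay below every control, by 1.10 on average (difference -1.10, adjusted p = 0.000548). Ackr4, a scavenger of CCL25 among other chemokines, was higher by 0.49 (adjusted p = 0.0303) with overlapping groups. That call was lost without control 2 (0.32, adjusted p = 0.0894), control 4 (0.49, 0.065), severe 2 (0.43, 0.0593) or severe 3 (0.46, 0.0599), and the mean over the probe sets of the gene differed by 0.08 (adjusted p = 0.621).

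**Figure D5:**
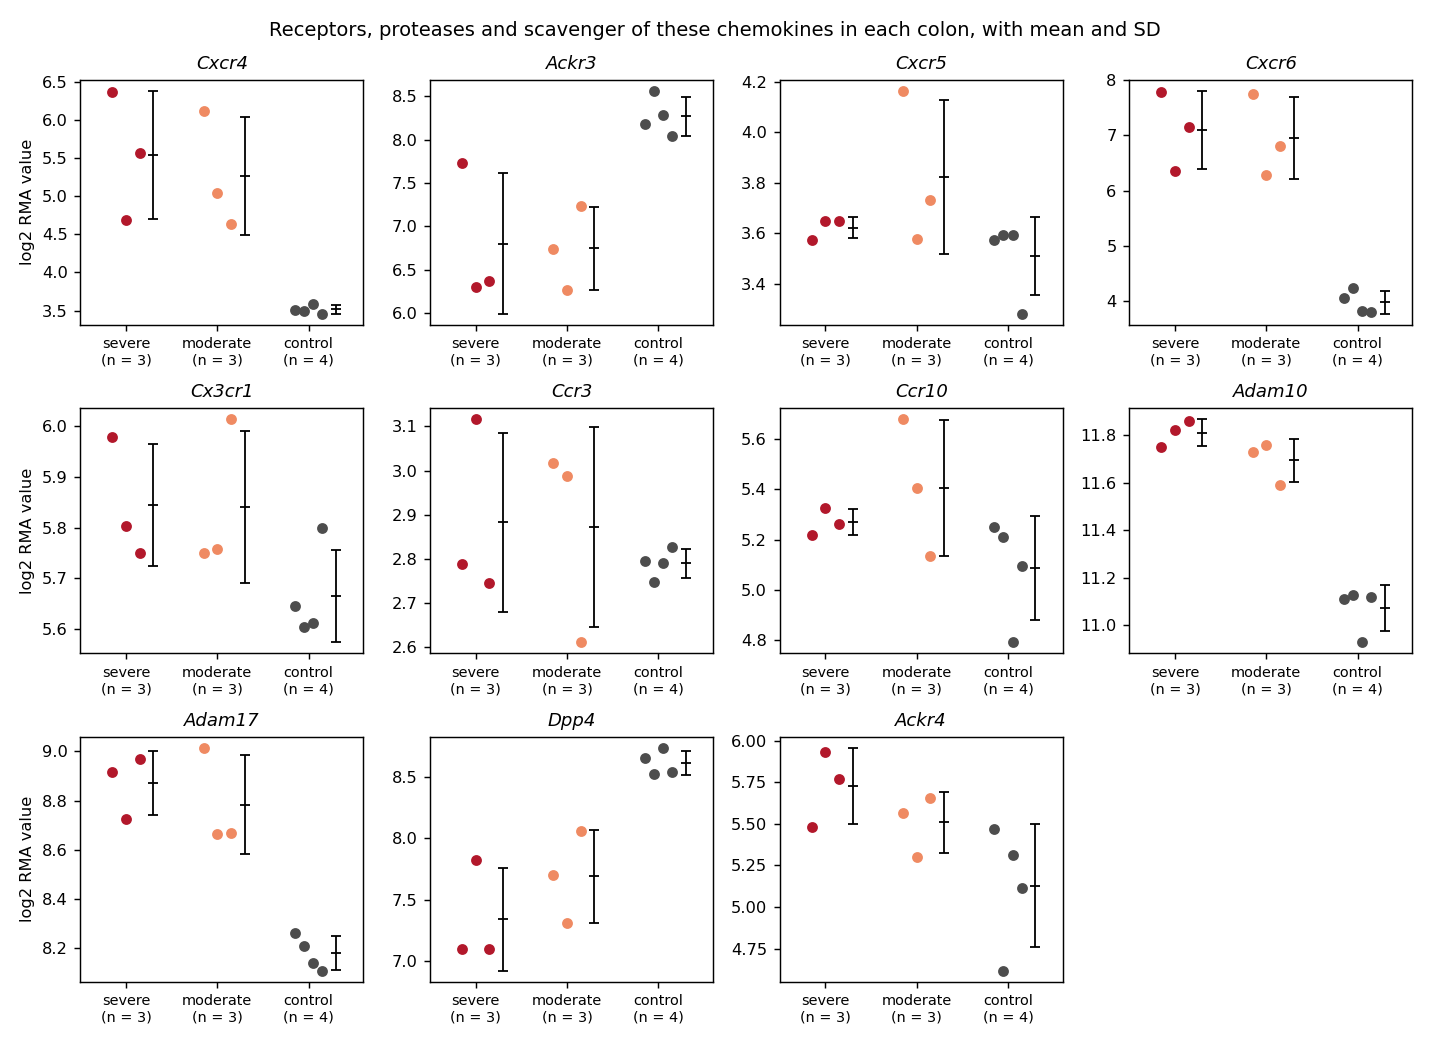
Log2 expression value (vertical axis) of 7 receptors of the ligands, of Adam10, Adam17 and Dpp4 and of the scavenger Ackr4, with severe, moderate and control colons from left to right; points are mice and bars are the mean and SD (n = 3, 3 and 4). Cxcr6 and Cxcr4 lie higher and Ackr3 and Dpp4 lower in every inflamed colon than in any control, while Cxcr5 and Ccr3 are dim on nearly all arrays.

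Of the other pathways around these chemokines, the organisers of lymphoid tissue had 7 of 10 measured genes higher and none lower, with a median difference of 0.55. Tnfsf11, the RANK ligand, differed by 3.31 (adjusted p = 0.000111), from controls of which 3 of 4 lay below the lower quartile of the array, and Ltb, lymphotoxin beta, by 2.52 (adjusted p = 2.6e-05). Ccl19 and Ccl21a were not analysed here. Of 6 gut homing genes 4 were higher and none lower, led by Itgae, which codes for the integrin chain that binds epithelial E-cadherin (2.14, adjusted p = 1.5e-05), and Itgb7, the chain that it shares with the receptor of MAdCAM-1 (1.17, adjusted p = 4.7e-05). Of 6 measured genes of Th17 cells and group 3 innate lymphoid cells, both of which can carry CCR6, 2 were higher and 1 lower. They were Il17a (0.52, adjusted p = 0.0123), Il17ra (0.40, adjusted p = 0.0132) and, lower, Ahr (-0.36, adjusted p = 0.0112; -0.10 and adjusted p = 0.309 as the mean over its probe sets). Il17f, Il22 and Il23r were not analysed here.

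Over the whole series the arrays were alike in distribution, with medians of 5.36 to 5.40, and Pearson's r between arrays across all probe sets was 0.9893 to 0.9958 within and 0.9625 to 0.9834 between inflamed and control colons. Cdx2, a transcription factor of intestinal epithelium, averaged 10.56 in severe, 10.65 in moderate and 10.50 in control colons. A gene of intestinal epithelium in general cannot tell colon from small intestine, so that it does not check the label of distal colon. Of the 6 small intestinal genes measured, Lct was below the lower quartile on all 10 arrays and the other 5 on none. Among these, Fabp6, an ileal gene, was 9.98 in moderate 3 and 8.07 in moderate 1, above the 5.86 to 7.72 of control colons. Other lists moved too: 6 of 6 neutrophil markers and 2 of 6 conventional dendritic cell markers were higher, 8 of 8 smooth muscle markers were lower, 4 of 12 pan-epithelial markers were higher and 2 lower, and 3 of 6 small intestinal genes were lower and none higher.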

How the data were processed

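Total RNA of 10 colons was hybridised to Affymetrix 3′ IVT mouse arrays. For extraction the labels name Trizol and the methods of the study a Qiagen kit. The deposited log2 values were made by the authors with Affymetrix Expression Console and RMA (versions not given in the sources used here), which brings all arrays to 1 distribution, so that levels are not compared between probe sets. Neither images nor scan dates nor detection calls were used, so that batches and signal over background were not examined.

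Of 45101 probe sets, 34945 are annotated to 1 gene alone, 932 to several and 9160 to none, and 64 are controls. The probe set with the highest mean represented each of 18193 genes. Differences were estimated in R 4.3.3 by lmFit and eBayes of limma 3.58.1, two-sided. P-values were adjusted by the Benjamini-Hochberg method across the genes, with 0.05 as threshold. A model of 2 groups gave inflamed against control, and 1 of 3 groups with a shared spread gave the comparisons by severity. Probe sets were fitted separately, and the tests were checked on simulated data. Alternatives were another value per gene, fewer probe sets, no dim genes, other array scaling, another variance estimate, weighted arrays, the t-test of the methods, separate fits, a replicate block and each array left out. The 10 genes, the 5 pathway lists, the 13 marker lists and the motif letters were chosen with earlier results of these data known. Named were all 10 genes, the receptors and the genes of release and clearance, the 2 largest rises and falls past the threshold of each other pathway list, up to 3 genes per marker list, and the 2 genes of nearest profile to members past the threshold by at least 1. Python 3.11.15 and matplotlib 3.10.9 drew the figures.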

Additional observations from a re-analysis of the deposited data

Results flagged for a closer look

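In 56 groups of 4 or 6 colons from 28 named genes, 3 values stood apart from the rest of their group by Dixon's test at the 95% level, where chance alone flags about 1 in 20 groups. Cxcr5 was high in moderate 1 among the inflamed colons (4.164, nearest 3.732) and low in control 4 among the controls (3.282, nearest 3.573). Adam10 was low in control 3 (10.93, nearest 11.11). None of the 10 chemokine and receptor genes themselves had such a value.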

How the results depend on the processing

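Of the 10 genes, 5 were called between inflamed and control colons, 3 of the 9 still measured when probe sets that may match several transcripts were left out (Ccr9 lost the test and Ccr6 had no other probe set), 8 (6 higher and 2 lower) with array weights, and 3 to 6 with 1 array left out (3 without control 3). Severe against control gave 6, and 3 to 7 with 1 array left out (3 without severe 3). Moderate against control gave 3, 1 with the methods' t-test, and 2 to 5 with 1 array left out (5 without moderate 3). Severe against moderate gave 0 throughout, and the probe set count stayed within 1.5 times. So did pathway list counts under the 6 alternatives run on them, which left out no array. With array weights Cxcl12 (-0.90, adjusted p = 0.0218), Ccl28 (-0.41, 0.0292) and Ccl20 (0.82, 0.0378) passed, and Cxcl12 also as the mean over its probe sets (-0.46, 0.0307). Cxcl13 and Cxcl16 kept their inflamed call under every alternative run. Over the differences of the 10 genes in the comparisons, and apart from arrays left out, 366 values kept direction and side of the threshold, 7 gained the call, 8 lost it and 15 changed sign.

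Values near 0 changed sign. Cx3cl1, inflamed against control, was 0.0396 with arrays centred on the median, 0.0026 with quantile normalization repeated, and -0.0947 to 0.0336 with 1 array left out. In severe colons it was 0.0519 centred, 0.0091 requantiled, 0.0237 with array weights and -0.0801 to 0.0831 with 1 array left out, and in moderate colons 0.0101 as the mean over probe sets, 0.0273 centred and -0.18 to 0.0912 with 1 array left out. With 1 array left out, moderate against control ranged from -0.10 to 0.88 for Ccl20 and from -0.30 to 0.0064 for Ccl25. Between severe and moderate colons Cxcl12 was -0.0825 as the mean over probe sets and -0.21 with array weights, Cx3cl1 was -0.0946 and Ccr9 0.0434 as the mean over probe sets, and Ccr9 was 0.12 without shared probe sets. With 1 array left out, severe minus moderate ranged from -0.56 to 0.41 for Cxcl12, -0.0075 to 0.65 for Cxcl16, -0.10 to 0.18 for Cx3cl1, -0.33 to 0.0704 for Ccl25, -0.45 to 0.0243 for Ccl28 and -0.30 to 0.29 for Ccr9. The cause of these shifts was not tested.

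Same-numbered arrays did not pair throughout: deviations from the group means of same-numbered arrays correlated at -0.08 to 0.29, with 2 of 9 pairs above 0.1. These 2 were severe 1 with moderate 1 (0.293) and severe 2 with moderate 2 (0.254). Pairs of other numbers ran from -0.311 to 0.169, and the medians were -0.0107 for same and -0.0132 for other numbers. A factor shared by those inflamed arrays was not tested. With the replicate number as a block, 6625 genes were called between inflamed and control colons, against 7222 without it, Cxcl14 lost its call (0.53, adjusted p = 0.0538), as did Ackr4, and Cx3cl1 was 0.0221 over inflamed, 0.0368 in severe and 0.0074 in moderate colons. The alternatives for other named genes were chosen after seeing the data. Calls with small differences depend on 3 or 4 mice per group, and dim probe sets limit Ccr9, Cxcr5 and Ccr3. Centring arrays on the median moved the genes called higher and lower to 4105 and 3178, against 3372 and 3850.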

Other observations

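Severe 1 and moderate 1 held the 2 highest inflamed values for 5 of the 10 genes (50%), Cxcl12, Cxcl13, Cxcl16, Ccl20 and Ccr9. The same was true of 9.39% of all genes and of 19% of the genes called higher in inflamed colons. These colons were also the 2 highest for the mean of the T cell, macrophage, conventional dendritic cell, follicular stroma, gut homing and receptor lists. The pattern was seen in the values and then counted, and no test was made of it.

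Profiles nearest to those of the strongest members were found over the 10 arrays as the root mean square difference between values centred on each gene's mean. Nearest to Cxcl13 were Pirb (0.238) and Mndal (0.241), nearest to Cxcl16 were Dock2 (0.128) and Fermt3 (0.133), and nearest to Ccr9 were Fyb (0.132) and Ifnar2 (0.145). These are descriptions of likeness over 6 inflamed and 4 control colons.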
